A study of Mus musculus with 8 samples.

Results

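The genes described here are 10 genes of endothelial cells, the cells that line blood vessels: Pecam1, Cdh5, Emcn, Kdr, Flt1, Tek, Tie1, Robo4, Esm1 and Vwf. They were taken from a list of names, and their probes were found through the platform's annotation, because the scanner files used here carry no gene name column. The annotation ties 20 of the array's 41174 probes to these 10 genes, out of 19532 annotated genes in all. Of the 20 probes, 15 passed the filter on dim probes, and all 10 genes kept at least 1 probe. The brightest probe of each gene stood for it and was well above background in all 8 samples, with no saturated spot.

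The samples came from CFT Swiss albino mice, 5 weeks old, that received obestatin, its N-terminal fragment (called the N-terminal peptide below), the fragment analog Nt8U or saline by intraperitoneal injection for 8 days. Obestatin is a peptide cut from the same precursor as the hormone ghrelin. One label gives 80 ng/kg and 6 mice per group and another gives 80 nmol/kg and 3 mice per group, and this was not reconciled here. RNA of the epididymal fat pad, named epididymal tissue in other labels, was hybridised to 2-colour oligonucleotide arrays, with 2 samples per group and 8 in all. Both samples of a group shared 1 of the 4 arrays, replicate 1 in Cy3 and replicate 2 in Cy5, so array and group cannot be told apart. No label says whether the 2 samples were separate mice or pools. A p-value here reflects no more than the spread of these samples, which the model takes as equal in all groups. That spread may be technical, and the 2 samples of some groups also differed widely in genes of the testis, as given below.

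Endothelial cells of a fat depot carry nutrients and lipids to adipocytes, and new vessels accompany the growth of the depot. Their surface holds 2 receptor systems that the list covers: VEGF receptors, which bind vascular endothelial growth factors and drive sprouting, and TIE receptors, which bind angiopoietins and keep vessels quiescent. Junction proteins hold the cells together, Robo4 stabilises the vessel wall, Esm1 is a proteoglycan secreted at sprouting tips, and Vwf is a clotting protein stored inside the cells. In GRCm38.p6 the genes lie on chromosomes 11 (Pecam1), 8 (Cdh5), 3 (Emcn), 5 (Kdr and Flt1), 4 (Tek and Tie1), 9 (Robo4), 13 (Esm1) and 6 (Vwf).

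Upstream sequences of 3 of the genes are shown because these genes differ in how they behaved: Emcn moved with most of the list, while Tie1 and Esm1 departed from it. The sequences are the 250 bases before the transcription start in RefSeq (GRCm38.p6), whose table held 7 of the 10 genes. Capitals mark AGGAAG or CGGAAG on either strand (CTTCCT or CTTCCG when read on the printed strand), 2 forms of the core bound by ETS transcription factors, a family active in endothelial cells. No 2 marked stretches overlap in these windows.
Emcn: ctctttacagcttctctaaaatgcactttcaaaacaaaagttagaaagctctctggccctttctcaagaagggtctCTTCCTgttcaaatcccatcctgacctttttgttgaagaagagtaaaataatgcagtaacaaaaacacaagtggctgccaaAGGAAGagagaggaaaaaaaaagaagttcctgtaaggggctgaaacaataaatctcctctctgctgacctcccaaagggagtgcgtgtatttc
Tie1: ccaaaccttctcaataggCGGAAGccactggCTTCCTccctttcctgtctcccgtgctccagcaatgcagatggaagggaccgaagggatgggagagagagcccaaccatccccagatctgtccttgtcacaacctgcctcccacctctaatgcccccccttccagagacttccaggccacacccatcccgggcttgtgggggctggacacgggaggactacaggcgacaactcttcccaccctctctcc
Esm1: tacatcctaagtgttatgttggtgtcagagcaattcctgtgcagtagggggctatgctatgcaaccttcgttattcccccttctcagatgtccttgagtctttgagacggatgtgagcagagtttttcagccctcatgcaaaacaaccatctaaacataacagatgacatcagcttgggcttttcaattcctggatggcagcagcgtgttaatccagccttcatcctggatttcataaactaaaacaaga
The Emcn window lies at chr3:137340828-137341077 on the plus strand, with its last 16 bases inside the range given for the gene. The Tie1 window lies at chr4:118489850-118490099 on the minus strand and the Esm1 window at chr13:113209409-113209658 on the plus strand. Of the windows not shown, those of Kdr and Flt1 lie wholly inside the range given for the gene. Those of Tek and Robo4 have 203 and 70 bases inside it. Either motif occurred in 4 of the 7 windows, those of Emcn, Tie1, Robo4 and Flt1, and in 39.2% of all 32851 windows of that length. Alone, AGGAAG was found in 29.5% of all windows and CGGAAG in 13.6%. The matches are letters in a window and were not tested as binding sites.

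The single Tie1 probe is shown as well, since the value of this gene rests on it alone. Tie1 lies on chromosome 4, and the probe of 60 bases, printed as the authors' deposited table gives it, is open in 1 reading frame on the printed strand.
Tie1 probe: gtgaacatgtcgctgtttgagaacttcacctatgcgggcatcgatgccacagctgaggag

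Intensities were corrected for background, normalized within and between arrays, and are given as normalized log2 intensity, in which 1 unit is a doubling. Differences come from limma's linear model with a dye term over all 15443 genes, and adjusted p-values from the Benjamini-Hochberg procedure over all of them. The median signal per sample was 73 to 231.5 intensity units (median background 22 to 31), and 25033 to 30673 probes per sample were well above background. Precision is limited by the number of arrays, and a difference had a median SE of 0.493. No gene on the array passed an adjusted p of 0.05 in any of the 6 differences between groups, which is 0% of the 15443 genes in each, so the differences below are values with unadjusted intervals, and none of them passed the test over all genes.

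At an unadjusted p of 0.05, 7 of the 10 genes (Pecam1, Cdh5, Emcn, Kdr, Flt1, Tek and Robo4) were higher with both obestatin and Nt8U than with saline, by 1.57 to 2.32 log2 units, a p that 7.19% of all genes reached in that direction with obestatin and 6.83% with Nt8U. Vwf was also higher with both, by 1.94 and 1.26, without reaching that p. With the N-terminal peptide, 9 of the 10 had a mean below that of saline, with differences of -1.17 to -0.13 log2 units, and Tek stood 0.13 above. Of all 15443 genes, 8188 had a mean above that of saline in this comparison. Tie1 differed little from saline with obestatin or Nt8U. Esm1 was high with obestatin alone among the 4 groups. The level of these genes in whole tissue depends on how many endothelial cells it holds and on the RNA per cell. It also depends on how much other tissue the sample holds, and genes of testis and epididymis were high in some samples, as given below. These cannot be told apart here.

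**Figure D1:**
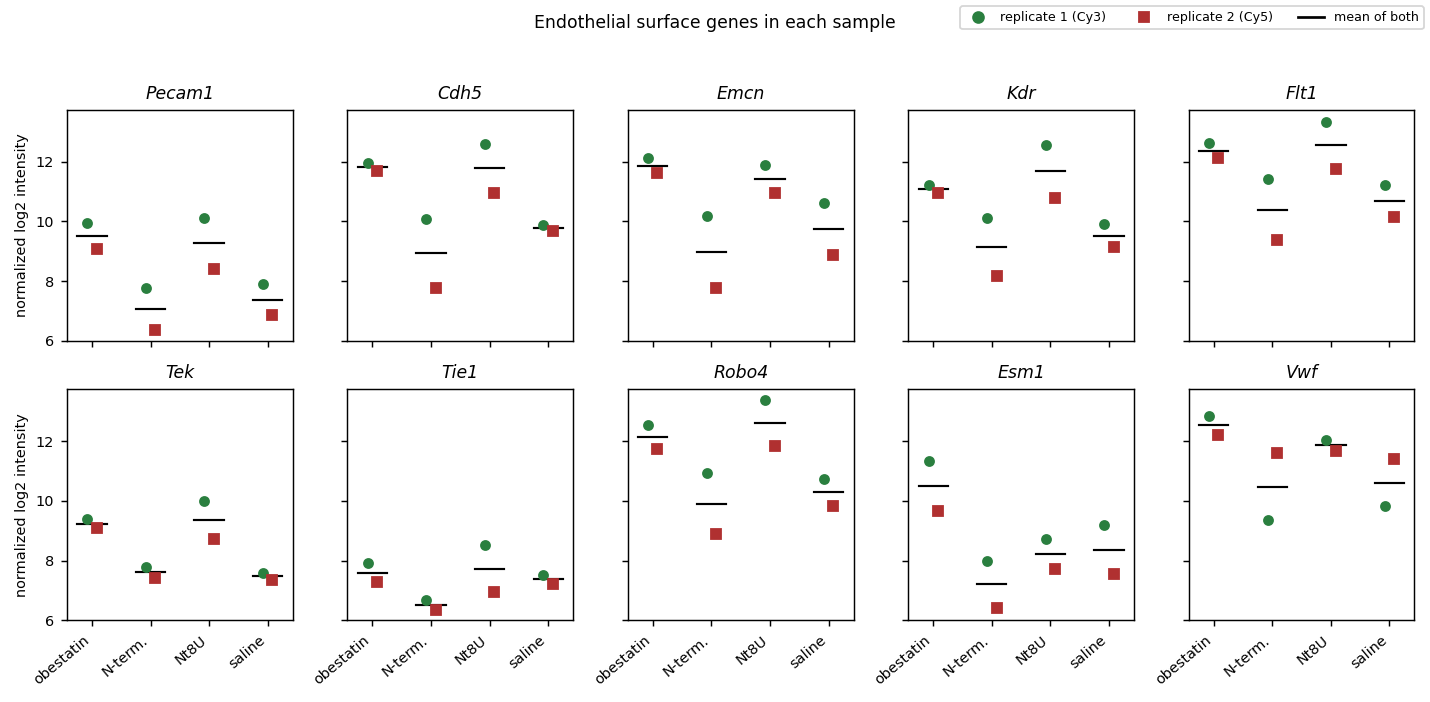
Normalized log2 intensity (vertical axis) of the 10 genes in each sample, by group; green circles are replicate 1 (Cy3), red squares replicate 2 (Cy5) and black bars the mean of both. Obestatin and Nt8U samples sit above the saline samples for 8 of the genes, Tie1 overlaps between obestatin and saline, and Esm1 is above the other groups in obestatin.

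Junction and surface proteins came first. Pecam1, an adhesion molecule at the contacts between endothelial cells, stood at 9.95 and 9.07 with obestatin, 7.77 and 6.36 with the N-terminal peptide, 10.11 and 8.41 with Nt8U, and 7.89 and 6.85 with saline. Both obestatin samples and both Nt8U samples were above both saline samples, and the N-terminal samples overlapped with saline. Obestatin minus saline was 2.14 (SE 0.33, 95% interval 1.27 to 3.02, unadjusted p = 0.00173, adjusted p = 0.538 by limma), a 4.41-fold difference. Nt8U minus saline was 1.89 (SE 0.33), and N-terminal peptide minus saline was -0.31 (SE 0.33).

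Cdh5, the cadherin that joins endothelial cells, stood at 11.97 and 11.70 with obestatin, 10.09 and 7.78 with the N-terminal peptide, 12.61 and 10.95 with Nt8U, and 9.89 and 9.68 with saline. The saline samples were close to each other, whereas the N-terminal samples lay on both sides of them. The obestatin minus saline difference was 2.05 (SE 0.65, interval 0.36 to 3.75) and Nt8U minus saline 2.00 (SE 0.65). In a separate fit over all probes that passed the filter, a second, dimmer Cdh5 probe gave 2.03 (SE 0.38) for obestatin minus saline. For Nt8U minus saline it gave 1.88 (SE 0.38), and the brightest probe had an SE of 0.63 in that fit.

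Emcn, a sialomucin of capillary and venous endothelium, stood at 12.12 and 11.61 with obestatin, 10.17 and 7.78 with the N-terminal peptide, 11.89 and 10.94 with Nt8U, and 10.63 and 8.87 with saline. Obestatin and Nt8U samples were all above the higher saline sample, although Nt8U replicate 2 exceeded saline replicate 1 only narrowly. Obestatin minus saline was 2.11 (SE 0.54, interval 0.69 to 3.54) and Nt8U minus saline 1.66 (SE 0.54).

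The VEGF receptors behaved like the junction genes. Kdr, the main signalling receptor for VEGF-A, stood at 11.22 and 10.96 with obestatin, 10.13 and 8.17 with the N-terminal peptide, 12.58 and 10.80 with Nt8U, and 9.90 and 9.14 with saline. Its highest sample was Nt8U replicate 1 and its lowest N-terminal replicate 2. The obestatin minus saline difference was 1.57 (SE 0.53, interval 0.18 to 2.96) and Nt8U minus saline 2.17 (SE 0.53). The Kdr and Pecam1 probes used here are each printed on 10 spots of the array. The SD between those spots was 0.04 to 0.141 for Kdr and 0.024 to 0.166 for Pecam1 across samples. For either gene that was smaller than the difference between the samples of any group. A second Kdr probe stayed at 5.88 to 5.97 and was never well above background. A second Pecam1 probe was well above it in Nt8U replicate 1 alone, and neither second probe passed the filter.

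Flt1, the VEGF receptor that also acts as a decoy for the ligand, stood at 12.64 and 12.12 with obestatin, 11.43 and 9.37 with the N-terminal peptide, 13.35 and 11.76 with Nt8U, and 11.22 and 10.15 with saline. All obestatin and Nt8U samples were above both saline samples. Obestatin minus saline was 1.69 (SE 0.46, interval 0.49 to 2.89). The other Flt1 probes that passed the filter gave 1.36 (SE 0.38) and 1.64 (SE 0.40) in the fit over probes. For Nt8U minus saline the 3 probes gave 1.87 (SE 0.44), 1.55 (SE 0.38) and 1.71 (SE 0.40) in the fit over probes.

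The 2 TIE receptors differed from each other. Tek, the receptor that binds angiopoietins, stood at 9.41 and 9.08 with obestatin, 7.80 and 7.40 with the N-terminal peptide, 10.00 and 8.74 with Nt8U, and 7.59 and 7.34 with saline. Its samples with the N-terminal peptide and with saline overlapped in a narrow range well below the other groups. The obestatin minus saline difference was 1.77 (SE 0.37, interval 0.80 to 2.75) and Nt8U minus saline 1.90 (SE 0.37). In the fit over probes, a dimmer Tek probe gave 0.80 (SE 0.34) and 0.83 (SE 0.34) for the same differences. That was the same direction at less than 1 unit.

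Tie1, the partner of Tek that modulates angiopoietin signalling, stood at 7.92 and 7.27 with obestatin, 6.68 and 6.35 with the N-terminal peptide, 8.52 and 6.94 with Nt8U, and 7.53 and 7.20 with saline. Both N-terminal samples were the lowest of the 8, and the obestatin and Nt8U samples overlapped with saline. Obestatin minus saline was 0.23 (SE 0.43, interval -0.89 to 1.35) and Nt8U minus saline 0.37 (SE 0.43, interval -0.75 to 1.49). N-terminal peptide minus saline was -0.85 (SE 0.43, interval -1.97 to 0.27). Tie1 was the dimmest of the 10 relative to background, at 2.17 to 8.52 times it, and in the authors' deposited table it is among 72 probes listed as lower with the N-terminal peptide, at the authors' log2 fold of -1.24, beside 0.48 for Nt8U and 0.21 for obestatin.

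Robo4, the endothelial member of the Roundabout receptors, stood at 12.56 and 11.73 with obestatin, 10.95 and 8.88 with the N-terminal peptide, 13.40 and 11.83 with Nt8U, and 10.74 and 9.84 with saline. The obestatin minus saline difference was 1.86 (SE 0.42, interval 0.75 to 2.96) and Nt8U minus saline 2.32 (SE 0.42, interval 1.21 to 3.43), a 5.00-fold difference. That was the largest Nt8U minus saline difference of the 10 genes.

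Secreted and stored proteins followed other patterns. Esm1 stood at 11.34 and 9.68 with obestatin, 8.00 and 6.40 with the N-terminal peptide, 8.71 and 7.73 with Nt8U, and 9.20 and 7.54 with saline. Both obestatin samples were above all 6 others, and the samples of the other 3 groups overlapped in part. Obestatin minus saline was 2.14 (SE 0.32, interval 1.29 to 2.98), with the same value in each dye. Nt8U minus saline was -0.15 (SE 0.32, interval -0.99 to 0.69), and N-terminal peptide minus saline -1.17 (SE 0.32, interval -2.02 to -0.33, unadjusted p = 0.0167, adjusted p = 1 by limma), although 1 N-terminal sample lay inside the saline range.

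Vwf stood at 12.86 and 12.23 with obestatin, 9.35 and 11.61 with the N-terminal peptide, 12.05 and 11.68 with Nt8U, and 9.82 and 11.40 with saline. With the N-terminal peptide and with saline, replicate 2 was the higher sample, by 2.27 and 1.59, whereas the other 9 genes were lower in replicate 2 in every group. The obestatin minus saline difference was 1.94 (SE 0.85, interval -0.30 to 4.18), but 3.05 between the Cy3 samples and 0.83 between the Cy5 samples. On a second Vwf probe replicate 2 was again the higher sample with the N-terminal peptide and with saline and the lower one in the other groups, at 10.88 and 10.34 with obestatin, 7.53 and 9.23 with the N-terminal peptide, 10.37 and 9.72 with Nt8U, and 8.10 and 9.61 with saline.

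**Figure D2:**
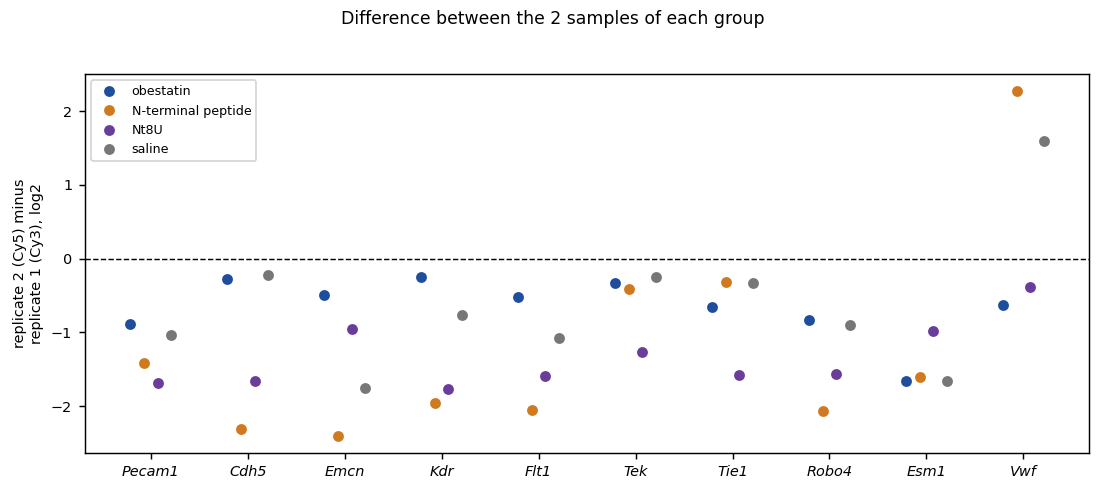
Replicate 2 (Cy5) minus replicate 1 (Cy3) of each gene in each group, in log2 units, with 1 point per group. Points lie below 0 for 9 genes in every group, and Vwf lies above 0 with the N-terminal peptide (2.27) and with saline (1.59).

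Counted over the list, 8 of the 10 genes were higher with obestatin than with saline at an unadjusted p of 0.05, against 7.19% of all genes, and 9 had both obestatin samples above both saline samples, against 25.8% of all genes. The median difference was 1.90, beside -0.01 over all genes, and all 10 were higher in both dyes. The share of all genes at an unadjusted p was counted for this fit only, so counts under other fits have none beside them. The count of 8 was 3 without saline replicate 1, 5 without saline replicate 2 and 2 without the dye term. Without obestatin replicate 1, a fit in which the remaining obestatin sample is taken to be as variable as the rest, 4 of the 10 passed an adjusted p of 0.05, as did 2757 genes on the array.

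With the N-terminal peptide, 1 of the 10 was lower than saline at an unadjusted p of 0.05, against 0.654% of all genes, and 1 had both samples below both saline samples, against 4.8%. These were Esm1 for the first count and Tie1 for the second, and none was higher by either count, against 0.11% and 4.35% of all genes. The median difference was -0.37, beside 0.02 over all genes. It was 0.04 between the Cy3 samples and -0.91 between the Cy5 samples, so that its direction differed between the replicates. Dye and replicate number coincide in every group, so the part of the dye and that of the sample cannot be told apart. The count of 1 was 0 without either sample of either group.

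Nt8U gave 7 of 10 higher than saline at an unadjusted p of 0.05, against 6.83% of all genes, and 8 without overlap, against 14.8%. None was lower at that p, against 1.25% of all genes. The median was 1.88, beside -0.12 over all genes. Without Nt8U replicate 1, or without saline replicate 1, the count was 3. The 3 comparisons with saline share the same saline samples, so their values stand side by side and are not independent of each other.

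**Figure D3:**
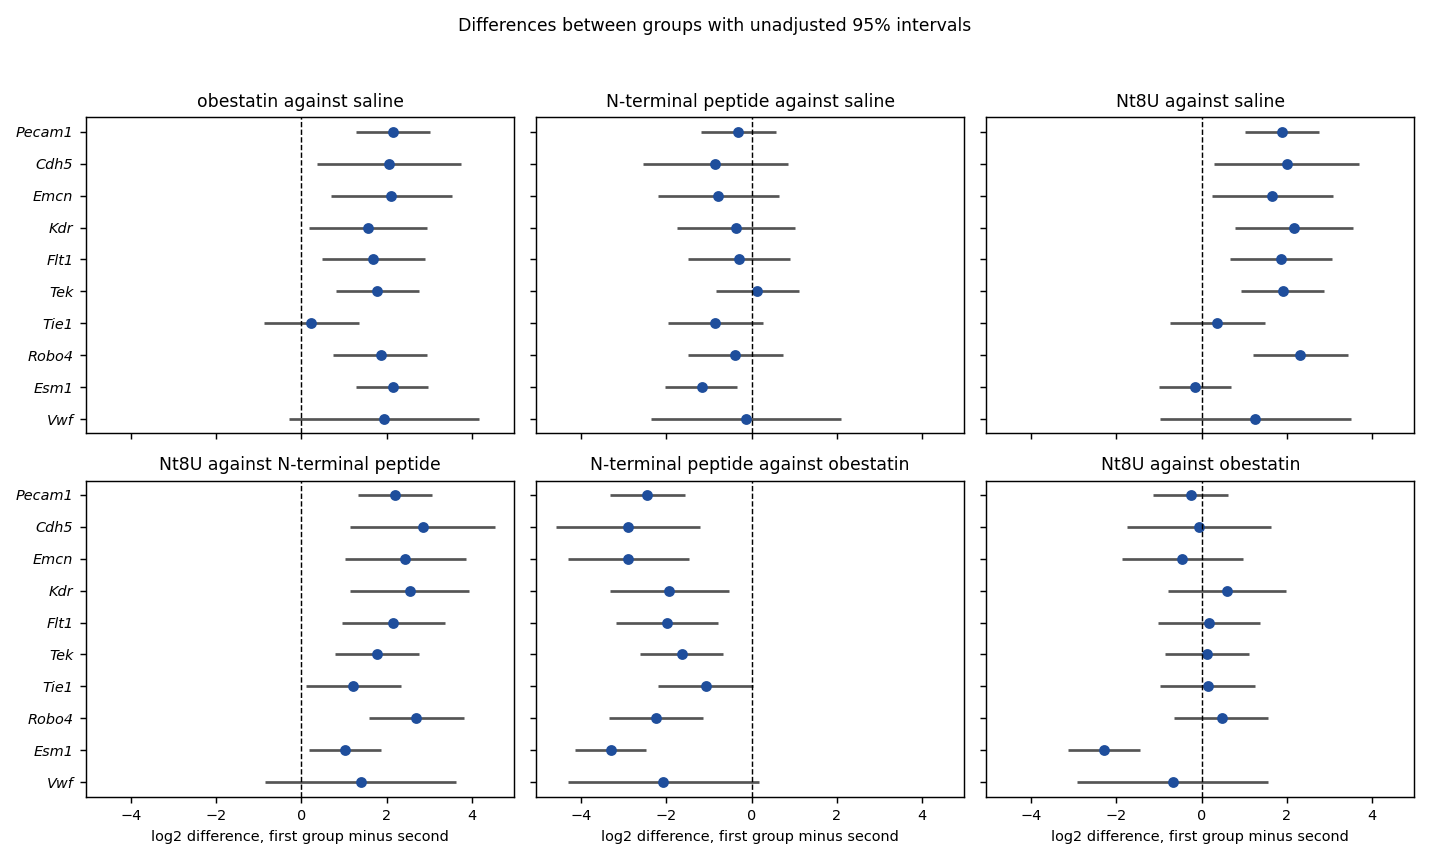
Differences between groups (log2, first group minus second) of the 10 genes, with unadjusted 95% intervals from the linear model, 1 panel per comparison; the dashed line marks 0. The intervals leave out 0 for 8 genes in obestatin against saline, 7 in Nt8U against saline and 9 in Nt8U against the N-terminal peptide, and Esm1 is the single gene whose interval leaves out 0 in Nt8U against obestatin.

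The peptides were then set against each other. Nt8U exceeded the N-terminal peptide in all 10 genes by a median of 2.18, beside -0.16 over all genes. At an unadjusted p of 0.05, 9 were higher, against 9.11% of all genes, and 9 did not overlap, against 16.2%. None was lower by either count, against 2.01% and 11.6% of all genes. Cdh5 differed most, by 2.85 (SE 0.65, interval 1.15 to 4.54), followed by Robo4 at 2.70 (SE 0.42) and Kdr at 2.54 (SE 0.53), while Esm1 differed by 1.02 (SE 0.32) and overlapped. Adjusted p-values of the 10 lay between 0.184 and 0.656.

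The N-terminal peptide lay below obestatin in all 10 genes in both dyes, by a median of -2.15, beside 0.02 over all genes. No sample overlapped in any of the 10, against 22.7% of all genes, and 8 had an unadjusted p under 0.05, against 9.16%. None was higher at that p, against 1.28% of all genes. Esm1 differed most, by -3.31 (SE 0.32, interval -4.15 to -2.47, adjusted p = 0.22 by limma), followed by Cdh5 at -2.90 (SE 0.65) and Emcn at -2.89 (SE 0.54). Without obestatin replicate 1, 7 of the 10 passed an adjusted p of 0.05, as did 3537 genes on the array.

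Nt8U and obestatin differed in 1 of the 10 at an unadjusted p of 0.05, Esm1, which was lower with Nt8U, against 1.02% of all genes. Its difference was -2.29 (SE 0.32, interval -3.13 to -1.44, unadjusted p = 0.00112, adjusted p = 0.994 by limma). Both Nt8U samples were below both obestatin samples for Esm1 and Vwf, against 21.7% of all genes, but on the second Vwf probe the samples overlapped. The median over the 10 genes was 0.04, beside 0.03 over all genes. The remaining intervals were wide: that of Kdr ran from -0.79 to 1.99, of Robo4 from -0.64 to 1.57 and of Cdh5 from -1.75 to 1.64.

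Genes around these receptors were counted from lists of their partners and relatives. At the unadjusted p of 0.05 used for all these counts, 7.19% of all genes were higher with obestatin than with saline and 6.83% with Nt8U, with medians over all genes of -0.01 and -0.12. In the VEGF list, 5 of 9 tested genes were higher with obestatin than with saline, with a median of 1.1, and 6 of 9 with Nt8U, with a median of 1.49. The ligand Vegfd differed by 1.93 (SE 0.53) with obestatin and the lymphatic ligand Vegfc by 1.42 (SE 0.45), and the coreceptor Nrp1 by 1.40 (SE 0.51). Vegfa, which encodes VEGF-A, differed by 0.57 (SE 0.59) with obestatin and 1.43 (SE 0.59) with Nt8U, and Pgf by 1.06 (SE 0.75) and -1.07 (SE 0.75). By sign alone, all 9 were higher with obestatin and 8 of 9 with Nt8U, beside 7642 and 6508 of all 15443 genes. In the angiopoietin list, 3 of 8 were higher with obestatin (median 1.36) and 1 of 8 with Nt8U (median 1.1). There Svep1, a matrix protein, differed by 2.17 (SE 0.78) with obestatin, the phosphatase Ptprb, which acts on Tek, by 1.89 (SE 0.61), and the ligand Angpt2 by 1.85 (SE 0.46). Angpt2 stood at 9.69 and 9.39 with obestatin, 9.02 and 7.72 with the N-terminal peptide, 8.89 and 8.51 with Nt8U, and 7.54 and 7.84 with saline.

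The remaining lists are set against the same shares, 7.19% of all genes with obestatin and 6.83% with Nt8U. Of 6 tested Robo and Slit genes, 1 was higher with obestatin, the ligand Slit3 at 1.87 (SE 0.33), with a list median of 1.30, and 1 with Nt8U, with a list median of 0.82. Of 13 junction genes, 4 were higher with obestatin and 3 with Nt8U, with medians of 0.48 and 0.30. Among them Cldn5, the endothelial claudin, differed by 1.96 (SE 0.49) with obestatin, and Gja5, a connexin of arterial endothelium, by 2.08 (SE 0.36). Another connexin, Gja1, differed by -1.51 (SE 0.76). By sign alone, 10 of the 13 were higher with obestatin and 8 with Nt8U, beside 7642 and 6508 of all 15443 genes. Of 28 other endothelial genes, 18 were higher with obestatin (median 1.58) and 18 with Nt8U (median 1.69). Gpihbp1, which carries lipoprotein lipase to the capillary lumen, differed by 2.11 (SE 0.78) with obestatin and 2.58 (SE 0.78) with Nt8U.

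With the N-terminal peptide against saline, 1 of 9 VEGF genes and 1 of 28 other endothelial genes were lower at an unadjusted p of 0.05. Of all genes, 0.654% were lower at that p. The VEGF gene was Vegfa, which differed by -2 (SE 0.59), and the other endothelial gene was Plvap, by -1.34 (SE 0.43). None of the angiopoietin, Robo and Slit, and junction genes was lower at that p. List medians lay between -0.41 and 0.01. Of 6 lymphatic endothelial genes, 2 were lower with the N-terminal peptide, against the same 0.654% of all genes. They were Lyve1, a hyaluronan receptor, by -1.38 (SE 0.29), and the chemokine Ccl21a by -2.19 (SE 0.72). With obestatin the same 2 genes were higher than saline, by 2.11 (SE 0.29) and 2.58 (SE 0.72).

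The medians of adipocyte, pericyte and leukocyte markers moved with these genes. The 10 adipocyte genes were well above background in every sample. Their median was 14.21 and 13.24 with obestatin, 11.94 and 8.84 with the N-terminal peptide, 15.25 and 13.48 with Nt8U, and 12.00 and 11.32 with saline. Up to 4 of these 10 genes were saturated in a sample, 4 in obestatin replicate 2 and in both Nt8U samples, so that their levels there are understated. Pericyte genes had medians of 11.01 and 10.80 with obestatin, 9.60 and 7.68 with the N-terminal peptide, 11.36 and 10.38 with Nt8U, and 9.58 and 8.38 with saline. Leukocyte genes had medians of 11.07 and 9.77 with obestatin, 8.52 and 6.80 with the N-terminal peptide, 10.90 and 9.41 with Nt8U, and 8.21 and 7.67 with saline, with Cd79a, a B cell gene, never above background. In all 3 lists the medians of the obestatin and Nt8U samples were above those of both saline samples. Their part in the differences was not tested. At an unadjusted p of 0.05, 3 of 10 adipocyte, 7 of 8 pericyte, 4 of 5 leukocyte and 3 of 6 lymphatic endothelial genes were higher with obestatin than with saline, against 7.19% of all genes. The same count was 4 of 7 for platelet genes, 5 of 9 for genes of activated endothelium, 2 of 10 for arterial and venous genes and 1 of 7 for smooth muscle. It was 0 of 3 for erythroid and 0 of 6 for mesothelial genes. With Nt8U against saline, 5 of 10 adipocyte, 5 of 8 pericyte, 3 of 5 leukocyte and 2 of 6 lymphatic endothelial genes were higher, against 6.83% of all genes. So were 2 of 3 erythroid genes (list median 2.44), 3 of 6 mesothelial genes (list median 0.84), 2 of 7 platelet genes, 2 of 9 genes of activated endothelium, 2 of 10 arterial and venous genes and 1 of 7 smooth muscle genes.

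Genes of male reproductive tissue, which a fat pad should hold little of, were high in some samples. Of 20 testis germ cell genes, 19 or 20 were well above background in each sample, with medians of 11.03 and 9.62 with obestatin, 9.59 and 14.96 with the N-terminal peptide, 8.89 and 13.63 with Nt8U, and 9.19 and 14.73 with saline. Of 16 measured epididymis genes, 4 to 16 were well above background, with medians of 8.97 and 9.22 with obestatin, 12.08 and 7.80 with the N-terminal peptide, 6.39 and 7.63 with Nt8U, and 16.38 and 10.51 with saline. Against saline with obestatin, 1 of the 16 epididymis genes was higher and 7 lower at an unadjusted p of 0.05. None of the germ cell genes and 0 of 7 Sertoli and Leydig cell genes reached that p. Of all genes, 7.19% were higher and 1.42% lower. With Nt8U against saline, 0 epididymis genes were higher and 8 lower at that p, against 6.83% and 1.25% of all genes. The N-terminal peptide against saline gave 1 higher and 5 lower, against 0.11% and 0.654% of all genes. Saturation was reached by 9 germ cell genes in replicate 2 of the N-terminal peptide and 5 in replicate 2 of Nt8U and of saline. It was reached by 8 epididymis genes in saline replicate 1, 3 in obestatin replicate 2 and 2 in N-terminal replicate 1, so the summed signals of those samples are understated and their medians may be. Summed log2 signals ran from 14.23 to 19.35 for the germ cell list and from 10.76 to 19.95 for the epididymis list. With both list scores as covariates, the median of the 10 genes was 1.44 for obestatin minus saline and 1.15 for Nt8U minus saline, with 1 residual degree of freedom left.

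**Figure D4:**
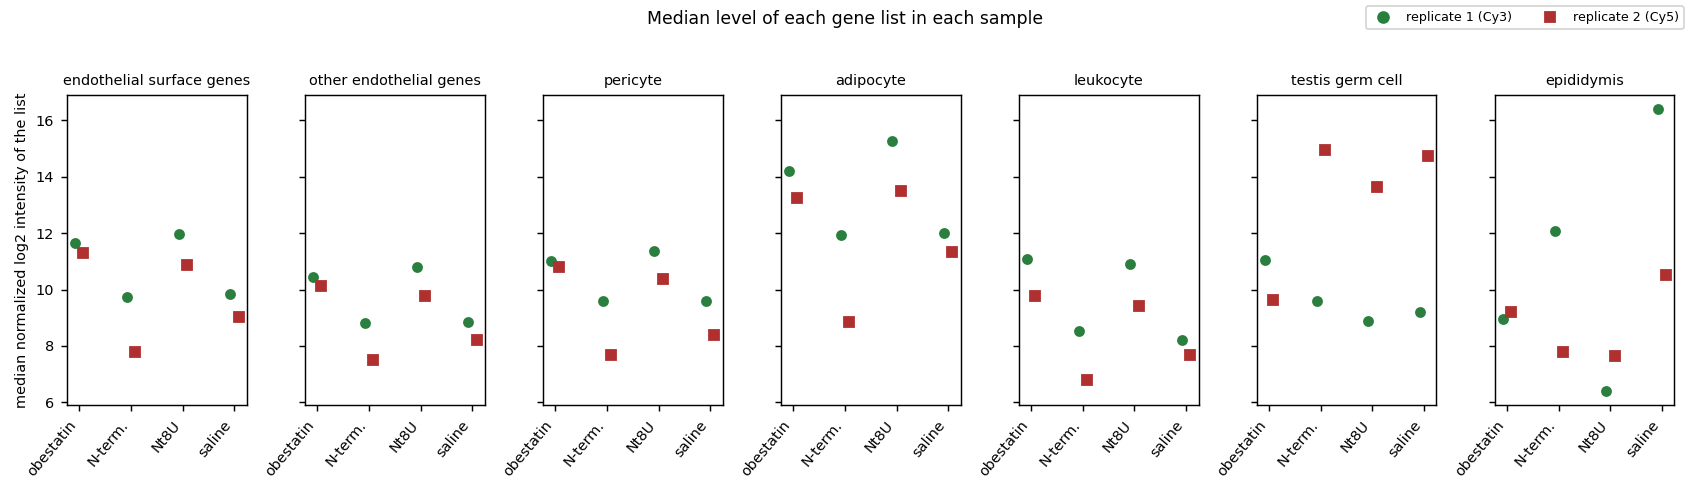
Median normalized log2 intensity (vertical axis) of the 10 endothelial genes and of 6 marker lists in each sample; green circles are replicate 1 (Cy3) and red squares replicate 2 (Cy5). Adipocyte, pericyte and leukocyte medians follow the endothelial genes, while germ cell medians are high in replicate 2 of the N-terminal peptide (14.96), Nt8U (13.63) and saline (14.73).

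Across the 8 samples the 10 genes varied together to different degrees, described by the correlation of each gene with the mean of the other 9. The samples share arrays, and differences in tissue content enter every value. Pecam1 had r = 0.993 and Cdh5 0.971, while Kdr, Flt1, Tek, Robo4 and Emcn lay between 0.938 and 0.966. Tie1 had 0.813, Esm1 0.732 and Vwf 0.434. Over all 8 samples, Esm1 covered the widest range of the 10, 4.94 log2 units, and Tie1 the narrowest, 2.17.

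The genes whose pattern was most like the mean of the 10 over the 8 samples, ranked by Pearson's r, were Chst7 (0.998), Sp100 (0.998), Msn (0.997), Eng (0.997), Ifit3 (0.996), Tln1 (0.995), Serpina3n (0.995), Tgfbi (0.995), Lyl1 (0.994) and Gng2 (0.994). Eng, the endothelial coreceptor endoglin, stood at 11.19 and 10.32 with obestatin, 8.82 and 7.46 with the N-terminal peptide, 11.47 and 9.59 with Nt8U, and 9.15 and 8.17 with saline.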

How the data were processed

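The members and gene lists were chosen with earlier results of these data known. The deposited intensities are median signals and median backgrounds per spot, made by the authors with Feature Extraction 10.5.1.1, per the file headers; no aligner or genome build applies. The authors also deposited log2 values, each column of which matches the channel opposite to its labelled dye (r = 1.00). Dyes were assigned by the deposited readme, and if the table's labels hold, the 2 samples of each group trade replicate number while every group stays the same. The flags for background, saturation and outliers, of unit other, are the scanner software's, per the file headers.

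Background was corrected with normexp (offset 50), then arrays were normalized internally by loess and to each other by Aquantile, in limma 3.58.1 and R 4.3.3. Control spots and 87 probes marked as outliers were left out. Kept were probes that some group had well above background in both its samples (28164 of 41174). Names came from the platform annotation, which gives 32664 probes 1 symbol and 45 several, and the brightest probe stood for each of 15443 genes. The model held group means and a dye term over all 8 samples (3 residual and 1.68 prior degrees of freedom), with empirical Bayes moderation, two-sided tests and Benjamini-Hochberg adjustment at 0.05, and was tested on simulated data. With 1 group per array, array could not enter as a random block. Named were all 10 members, up to 3 genes per list with the largest absolute difference between obestatin and saline, and the 10 genes most like the members' mean. A few further list genes were named after their values were seen. Promoters were read with pandas from RefSeq's table.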

Additional observations from a re-analysis of the deposited data

How the results depend on the processing

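The members' median kept its direction under every alternative run for obestatin against saline (1.44 to 2.19), Nt8U against saline (1.15 to 2.23), Nt8U against the N-terminal peptide (1.85 to 2.48) and the N-terminal peptide against obestatin (-2.77 to -1.75). A median was counted as moved when it shifted by at least 0.44, the median residual SD of the members. That yardstick was adopted after the results under a first one had been seen. The first was the SD of each comparison's 2 within-dye medians, which ran from 0.03 to 0.74. Of 96 medians under alternatives, 7 moved by the yardstick used and 24 by the first.

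For obestatin against saline the covariates gave 1.44, and the count at an unadjusted p of 0.05 was 2 without the dye term. Leaving out each sample gave counts of 3 to 8 and 0 to 4 passing the adjusted threshold, with medians of 1.51 to 2.19. For the N-terminal peptide against saline the count was 2 with processed signals, 0 without the dye term, 2 with covariates and 0 with any sample left out. Its median was 0.04 in Cy3 and -0.91 in Cy5, and -0.83 to -0.08 with a sample left out. For Nt8U against saline the covariates gave a median of 1.15 and a count of 2, the count was 2 without the dye term, and leaving out each sample gave 3 to 6. Without the dye term the count was 5 for Nt8U against the N-terminal peptide and 5 for the N-terminal peptide against obestatin, whose Cy5 median was -2.77 and of which 0 to 7 passed with a sample left out. For Nt8U against obestatin the median was -0.18 with quantile normalization, -0.03 with 75th percentile scaling, -0.04 with the authors' log2 values, -0.01 with the mean of all probes, -0.38 with covariates, 0.60 in Cy3, -0.45 in Cy5 and -0.38 to 0.34 with a sample left out, and the count was 0 without the dye term and 2 with covariates. The causes were not tested.

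Single genes reversed as follows, ranges being over fits that leave out 1 sample. Against saline with obestatin, Tie1 was -0.29 with covariates and ran from -0.03 (without saline replicate 1) to 0.49. With the N-terminal peptide, Tek was -0.09 with processed signals, -0.25 with covariates and ran from -0.08 (without saline replicate 1) to 0.34. Vwf ran from -1.17 to 0.91 (without N-terminal replicate 1), with 0.45 without saline replicate 2. Kdr ran from -0.88 to 0.15, Robo4 from -0.87 to 0.10 and Flt1 from -0.79 to 0.21, the last value of each being without N-terminal replicate 2. With Nt8U, Esm1 was 0.06 with processed signals, 0.47 with covariates and ran from -0.48 to 0.18 (without Nt8U replicate 1). Tie1 was -0.73 with covariates and ran from -0.21 (without Nt8U replicate 1) to 0.94, and Vwf was -0.21 with covariates.

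No gene passed the adjusted threshold under any alternative except without obestatin replicate 1, where 2757, 3537 and 1519 passed in the comparisons of obestatin with saline, the N-terminal peptide with obestatin and Nt8U with obestatin. Replicate number and dye coincide in every group, so the dye term is also the block on replicate number, and the counts without the dye term are those without that block. The Cy3 and Cy5 values, and the counts at an unadjusted p, were chosen after seeing the data. Under the alternatives, the share of all genes at an unadjusted p was not counted. Mean signals were planned and not run, since the files used here give medians. Low signal over background limits Tie1, Pecam1 and Esm1, whose dimmest samples reached 2.17, 2.45 and 2.71 times background.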

Other observations

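Gp9, a platelet glycoprotein, did not follow the order of the endothelial genes. It stood at 9.16 and 9.46 with obestatin, 9.69 and 5.89 with the N-terminal peptide, 6.91 and 6.53 with Nt8U, and 6.20 and 6.10 with saline. Pf4, a chemokine of platelet granules, was higher in all obestatin and Nt8U samples than in saline, at 12.78 and 11.02 with obestatin, 9.35 and 8.16 with the N-terminal peptide, 12.15 and 10.97 with Nt8U, and 9.70 and 9.53 with saline.

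Sox17, a transcription factor of arterial endothelium, and Vcam1, an adhesion molecule of activated endothelium, were, like Vwf, higher in replicate 2 with the N-terminal peptide and with saline; both were chosen after seeing their values. Sox17 stood at 9.57 and 9.33 with obestatin, 8.18 and 10.11 with the N-terminal peptide, 10.17 and 9.23 with Nt8U, and 8.12 and 9.77 with saline. Vcam1 stood at 10.29 and 9.96 with obestatin, 8.17 and 10.15 with the N-terminal peptide, 10.43 and 10.71 with Nt8U, and 9.16 and 10.52 with saline.

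Procr, the endothelial receptor for protein C, differed by 2.28 (SE 0.48) between obestatin and saline and by 2.34 (SE 0.48) between Nt8U and saline. The pericyte gene Rgs5 differed by 2.76 (SE 0.42) and 1.97 (SE 0.42) in the same comparisons. None of these passed an adjusted p of 0.05 by limma.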
